A study of Mus musculus with 4 samples.

Results

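Interferon-stimulated genes were examined in T follicular helper (Tfh) cells, a CD4+ subset that guides antibody responses in B cell follicles. The set comprised 36 genes chosen by symbol: 23 antiviral effectors, sensors and regulators, 9 guanylate-binding proteins (GBPs) and 4 immunity-related GTPases (IRGs). All 36 had a row among the 23997 genes of the deposited table, and all passed a filter on low values that left 11187 genes for testing. Cells came from lymph nodes and spleens of mice of the C57BL/6 strain aged 13 weeks, with 2 wild type (WT) and 2 Apoe-/- libraries. Mice of the latter genotype lack apolipoprotein E, clear lipoproteins poorly from the blood and develop atherosclerosis readily. No treatment is given for either genotype, and the labels say neither how the cells were isolated nor whether a library came from 1 mouse or a pool. The spread behind each p-value is therefore that of these libraries and may be technical. Apoe itself was at 145 and 128 FPKM in the WT libraries and 5.09 and 5.21 FPKM in the Apoe-/- libraries, so the target gene matched the labels.

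Interferons are secreted proteins that signal infection. Type I interferons act through the receptor chains IFNAR1 and IFNAR2 and the kinases JAK1 and TYK2 to assemble a transcription factor complex that binds interferon-stimulated response elements (ISREs). Interferon gamma, the type II interferon that T and NK cells make, acts through IFNGR1 and IFNGR2 to activate transcription factors that bind gamma-activated sites (GAS). Type I interferon chiefly induces the IFIT, OAS and ISG15 genes, while interferon gamma strongly induces GBPs and IRGs, with much overlap between the responses. In helper T cells, type I interferon signaling can act on Tfh differentiation, and Tfh cells themselves can make interferon gamma.

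Levels are FPKM (fragments counted per kilobase of gene and per unit of library size). They take gene length into account, so levels of different genes can be set side by side. Values of the 2 libraries of a group are given in the order replicate 1, replicate 2. Differences are Apoe-/- minus WT on the log2(FPKM + 1) scale with the standard error (SE) of limma's fit. The adjusted p-values come from limma with the Benjamini-Hochberg method over all tested genes, at a threshold of 0.05. Read depth is unknown; FPKM totals ranged from 522371 to 551289 per library. Deviations from the group means correlated at r = 0.21 between libraries of equal replicate number (across 11187 genes, which are not independent replicates). Crossed numbers gave -0.21, the mirror value that 2 libraries per group force, so this r does not show that numbers pair libraries. The difference within each number is given beside the larger pooled differences as a description, and the plot of differences shows it for all 36 genes.

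None of the interferon-stimulated genes passed the test, which used no replicate block. With limma, 0 of 36 were called higher and 0 lower in Apoe-/- cells, where 0.948% and 0.885% of all tested genes were called, 1.83% in all. At an unadjusted p under 0.05, 7 were higher (19.4%, against 11.6% of all tested genes) and 2 lower (5.56%, against 8.27%). The 7 were Ifit2, Ifit3, Oasl2, Usp18, Dhx58, Mx1 and Gbp9, and the 2 were Isg15 and Gbp2. These limma counts depended on scaling. They were 5 and 2 with libraries rescaled to one FPKM total, and 10 and 2 with one median FPKM. Shares of all tested genes were not taken for the rescaled libraries. The median difference of the 36 genes was 0.09, with 0.11 within replicate number 1 and 0.11 within number 2, beside 0.00029 over all tested genes. Rescaling the libraries to one FPKM total brought these medians to 0.047 and -0.043.

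The differences were small in size, much as over all tested genes. Their median absolute value was 0.16, beside a median SE of 0.13, and over all tested genes it was 0.17. The 95% interval of the difference lay within -1 to 1 for 35 of the 36 genes and for 10451 of the 11187 tested genes; the exception was Oasl2, whose interval reached 1.02. For 17 of the 36 it lay within -0.5 to 0.5, and for 5251 of the 11187 tested genes. Of the 36 differences, 27 were above 0 (75.0%, against 50.0% of all tested genes). Of these, Oas1a, Gbp5, Gbp8 and Igtp turned below 0 with libraries rescaled to one FPKM total. That rescaling also lowered the median over all tested genes, to -0.043, and rescaling to one median FPKM turned no sign among the 36. Both Apoe-/- libraries were above both WT libraries for 18 genes (50.0%, against 27.5% of all tested genes), and below them for 4 genes (11.1%, against 22.9%).

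**Figure D1:**
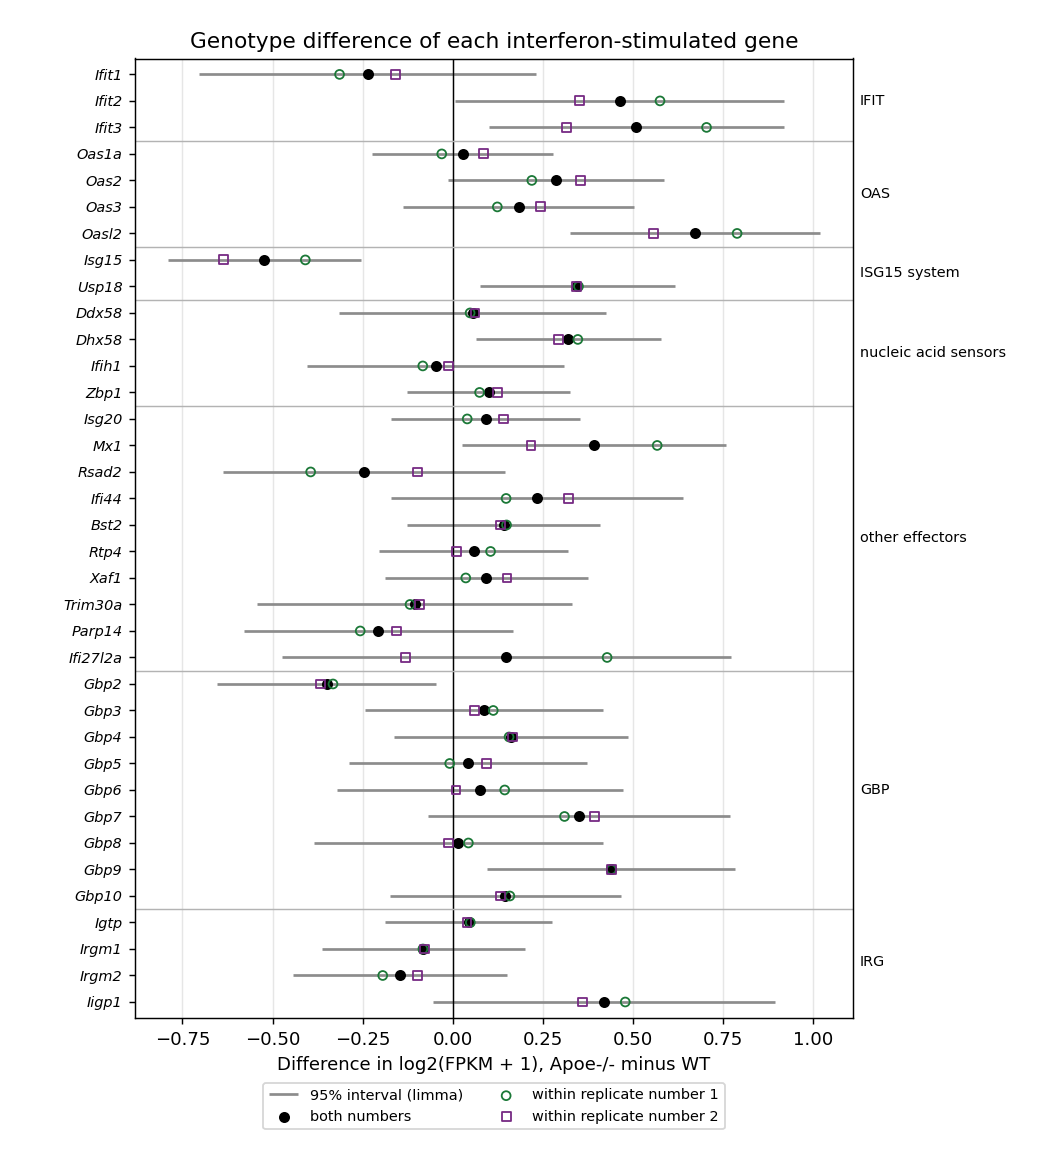
Difference in log2(FPKM + 1), Apoe-/- minus WT, for each of the 36 interferon-stimulated genes, grouped by role. Filled points are the pooled difference, lines its 95% interval from limma, and open circles and squares the difference within replicate numbers 1 and 2; Oasl2 lies farthest above 0 at 0.67 and Isg15 farthest below at -0.52, and no gene passed after adjustment.

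In the set 3 genes differed by 0.5 or more in size, namely Oasl2 and Ifit3 upward and Isg15 downward. That was 8.33%, close to the 9.24% of all tested genes. The 250 bases before a transcription start of each are shown here with those of Gbp7, to display the elements through which interferons act on such genes. Sequences are from RefSeq (GRCm38.p6), which held a promoter for 22 of the 36 genes, and are written 5′ to 3′ on the gene's strand. Capitals mark matches to the ISRE core, searched as GAAANNGAAA, or to GAS, searched as TTCNNNGAA, on both strands. The windows lie at chr4:156200819-156201068 (minus strand) for Isg15, chr19:34583279-34583528 (plus strand) for Ifit3, chr5:114896684-114896933 (plus strand) for Oasl2 and chr3:142530086-142530335 (plus strand) for Gbp7. The start used for Ifit3 lies 410 bases inside the annotated span of the gene and that of Oasl2 8 bases inside, so other starts are annotated further upstream; no GENCODE M21 exon overlaps these windows.
Isg15: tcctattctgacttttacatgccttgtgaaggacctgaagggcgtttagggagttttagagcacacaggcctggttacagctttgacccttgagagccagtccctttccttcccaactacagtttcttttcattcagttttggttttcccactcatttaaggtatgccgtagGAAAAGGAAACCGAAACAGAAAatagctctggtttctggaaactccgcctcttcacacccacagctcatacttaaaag
Ifit3: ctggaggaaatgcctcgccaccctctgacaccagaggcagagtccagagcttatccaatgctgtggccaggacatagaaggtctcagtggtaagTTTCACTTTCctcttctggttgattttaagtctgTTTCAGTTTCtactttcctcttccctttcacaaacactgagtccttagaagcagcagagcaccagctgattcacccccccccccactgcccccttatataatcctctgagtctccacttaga
Oasl2: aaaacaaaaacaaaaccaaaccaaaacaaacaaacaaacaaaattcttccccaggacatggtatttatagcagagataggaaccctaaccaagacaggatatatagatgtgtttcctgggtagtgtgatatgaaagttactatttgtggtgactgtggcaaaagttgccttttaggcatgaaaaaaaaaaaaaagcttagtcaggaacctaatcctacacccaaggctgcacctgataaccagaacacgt
Gbp7: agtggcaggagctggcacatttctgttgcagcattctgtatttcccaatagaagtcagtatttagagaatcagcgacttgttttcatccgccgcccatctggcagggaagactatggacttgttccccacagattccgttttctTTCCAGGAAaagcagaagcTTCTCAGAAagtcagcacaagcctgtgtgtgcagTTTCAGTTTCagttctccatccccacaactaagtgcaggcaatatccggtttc

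In the Isg15 window 3 overlapping ISRE cores began 78, 72 and 66 bases before the transcription start. Ifit3 held cores 156 and 122 bases before it, on the opposite strand. Gbp7 held an ISRE core at 53 bases and GAS matches at 106 and 87 bases. The Oasl2 window held neither motif, which says only that these letters are not in these 250 bases. Over the 22 genes with a promoter, 15 held an ISRE core (68.2%), against 936 of 27025 genes in the promoter table (3.46%). GAS matches stood in 8 (36.4%), against 8.13% of all genes. The ISRE core was present in 8 of the 14 genes with a difference above 0 and in 7 of the 8 with a difference below 0, and GAS matches in 7 of the 14 and 1 of the 8. Thus Isg15 and Ifit3 both carried an ISRE core while their values lay on opposite sides. None of these genes passed, and some of the signs counted here were not stable. Oas1a, Gbp5 and Igtp, which held both motifs, turned below 0 with libraries rescaled to one FPKM total. The split of GAS matches by sign thus changed with that rescaling. Gbp3 and Trim30a, which held an ISRE core, turned sign with 1 library left out. So did Ddx58 and Ifih1, whose windows held neither motif. Whether a motif goes with a direction was not tested.

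**Figure D2:**
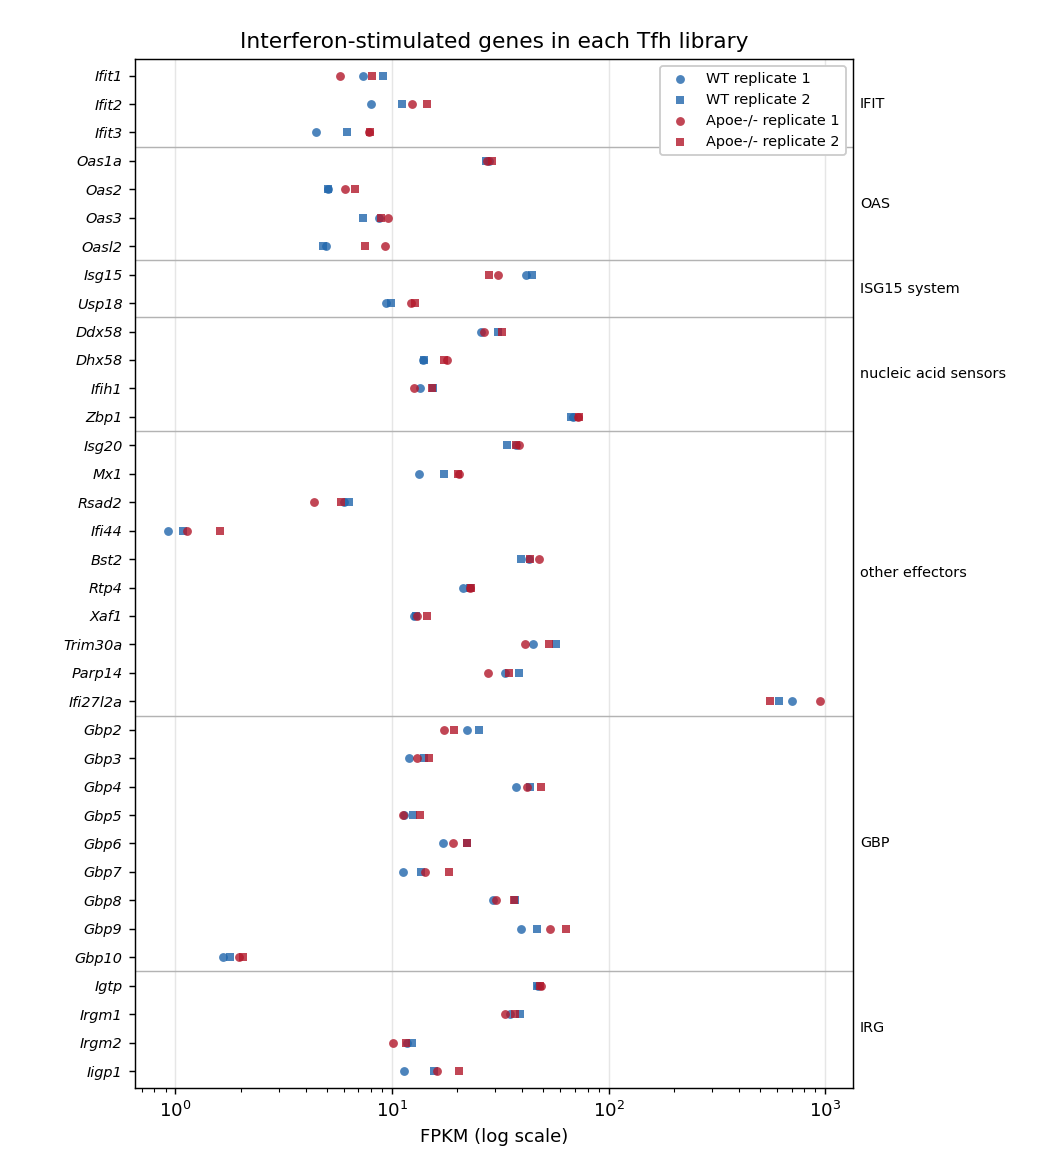
FPKM, on a log scale, of the 36 interferon-stimulated genes in each library, grouped by role. WT libraries are blue and Apoe-/- libraries red, circles are replicate 1 and squares replicate 2; levels span from 0.922 FPKM for Ifi44 in WT replicate 1 to 950 FPKM for Ifi27l2a in Apoe-/- replicate 1, and for most genes the colours lie close together.

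The IFIT genes, which lie together on chromosome 19 (GRCm38, 34550550 to 34650009) and encode proteins that bind foreign RNA and block its translation, did not share a direction. Ifit3 was at 4.44 and 6.17 FPKM in WT and 7.86 and 7.92 FPKM in Apoe-/- libraries (log2 difference 0.51 ± 0.16 SE, adjusted p = 0.179). Both Apoe-/- libraries were higher, and the difference was 0.70 within number 1 and 0.32 within number 2. Of the 80-base windows of its longest coding transcript, 39.1% also occur in transcripts of Ifit3b, so its level may include reads of that gene. Ifit3b has no row of its own among the deposited values. Ifit2 was at 7.97 and 11.2 FPKM in WT and 12.4 and 14.5 FPKM in Apoe-/- libraries (0.46 ± 0.18 SE, adjusted p = 0.247, with 0.58 and 0.35 within numbers 1 and 2), again without overlap. With 1 library left out the difference ranged from 0.31 to 0.71 for Ifit3 and from 0.24 to 0.68 for Ifit2. Ifit1 was at 7.38 and 9.09 FPKM in WT and 5.74 and 8.04 FPKM in Apoe-/- libraries, with overlapping groups and a difference of -0.24.

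The 2′-5′ oligoadenylate synthetase (OAS) genes make the second messenger that activates RNase L. Oasl2, a member of the family on chromosome 5 (114896926 to 114912245), had the largest difference of the 36 genes. Its level was 4.96 and 4.80 FPKM in WT and 9.30 and 7.53 FPKM in Apoe-/- libraries, a 1.73-fold higher mean (0.67 ± 0.14 SE, adjusted p = 0.0887, with 0.79 and 0.56 within numbers 1 and 2). The groups did not overlap. The difference of Oasl2 ranged from 0.54 to 0.81 with 1 library left out. Over the settings with all 4 libraries and no replicate block, its adjusted p ranged from 0.0823 to 0.149.

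Oas1a, Oas2 and Oas3 lie side by side further along chromosome 5 (120730333 to 120907544). Oas1a was the most abundant of them, at 28.2 and 27.1 FPKM in WT and 27.6 and 28.9 FPKM in Apoe-/- libraries, so that the groups overlapped. Of its 80-base windows 46.1% occur in transcripts of Oas1g. That gene was listed at 0.142 and 0.377 FPKM in WT and 0.691 and 0.554 FPKM in Apoe-/- libraries. Oas2 was at 5.06 and 5.08 FPKM in WT and 6.06 and 6.77 FPKM in Apoe-/- libraries (difference 0.29, 95% interval -0.01 to 0.59). Oas3 was at 8.67 and 7.35 FPKM in WT and 9.53 and 8.89 FPKM in Apoe-/- libraries (0.18, -0.14 to 0.50). Both were without overlap between the groups and did not pass.

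Isg15 encodes a ubiquitin-like protein that is joined to other proteins during antiviral responses, and Usp18 the protease that removes it and also restrains the type I interferon receptor. Their values lay on opposite sides of 0. Isg15 (chromosome 4, 156199424 to 156200818) was at 41.5 and 44.3 FPKM in WT and 31.0 and 28.2 FPKM in Apoe-/- libraries, a mean 1.45-fold lower (-0.52 ± 0.11 SE, adjusted p = 0.0887, with -0.41 and -0.64 within numbers 1 and 2). Usp18 was at 9.42 and 9.86 FPKM in WT and 12.3 and 12.8 FPKM in Apoe-/- libraries (0.35 ± 0.11 SE, adjusted p = 0.169, with 0.35 and 0.34 within the numbers). Neither gene's groups overlapped, and neither passed.

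Among the sensors of foreign nucleic acid, Dhx58, which encodes LGP2, a regulator of the RIG-I-like receptors, had the largest difference. Dhx58 was at 13.9 and 14.0 FPKM in WT and 17.9 and 17.4 FPKM in Apoe-/- libraries (0.32 ± 0.10 SE, adjusted p = 0.178, with 0.35 and 0.29 within numbers 1 and 2), with no overlap. Ddx58, which encodes RIG-I, was at 25.7 and 30.9 FPKM in WT and 26.6 and 32.3 FPKM in Apoe-/- libraries. Ifih1, which encodes MDA5, was at 13.5 and 15.5 FPKM in WT and 12.7 and 15.4 FPKM in Apoe-/- libraries. For Ddx58 and Ifih1 the replicate number separated the values more than the genotype did, and the intervals were -0.31 to 0.42 for Ddx58 and -0.40 to 0.31 for Ifih1. Zbp1, a sensor of left-handed nucleic acid that can start necroptosis, was the second most abundant gene of the set, at 68.4 and 67.0 FPKM in WT and 72.1 and 73.1 FPKM in Apoe-/- libraries (0.10, interval -0.13 to 0.33).

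Of the 10 other effectors, 7 had a difference above 0 and 3 below. Ifi27l2a, a small interferon-induced membrane protein gene, was by far the most abundant of the 36 genes and also the most variable. It was at 705 and 613 FPKM in WT and 950 and 560 FPKM in Apoe-/- libraries, so that the highest and the lowest values both came from Apoe-/- libraries. Its difference was 0.15 ± 0.25 SE with all libraries, 0.43 within number 1 and -0.13 within number 2. Without Apoe-/- replicate 2 it was 0.53 (adjusted p = 0.0420) and without Apoe-/- replicate 1 it was -0.23 (adjusted p = 0.560), so that the sign depended on single libraries.

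Mx1 encodes a dynamin-like GTPase against viruses, although the C57BL/6 strain carries a deletion in the gene. It was at 13.4 and 17.3 FPKM in WT and at 20.3 FPKM in both Apoe-/- libraries (0.39 ± 0.15 SE, adjusted p = 0.226), with differences of 0.57 within number 1 and 0.22 within number 2. Ifi44, the least abundant gene of the set, was at 0.922 and 1.09 FPKM in WT and 1.13 and 1.60 FPKM in Apoe-/- libraries. Rsad2, which encodes viperin, was at 6.02 and 6.30 FPKM in WT and 4.34 and 5.83 FPKM in Apoe-/- libraries (-0.25, interval -0.64 to 0.15). The groups of these genes did not overlap, and their intervals, apart from that of Mx1 (0.03 to 0.76), included 0.

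Bst2 encodes tetherin, which holds budding virus at the cell surface. It was at 42.7 and 39.4 FPKM in WT and 47.5 and 43.3 FPKM in Apoe-/- libraries. Isg20, an exonuclease gene, was at 37.4 and 33.9 FPKM in WT and 38.5 and 37.5 FPKM in Apoe-/- libraries. Xaf1, whose product promotes apoptosis, was at 12.7 and 13.0 FPKM in WT and 13.0 and 14.5 FPKM in Apoe-/- libraries. In each of these 3 genes the lower Apoe-/- library lay only just above the higher WT library. Rtp4, a chaperone of G protein-coupled receptors, was at 21.2 and 23.0 FPKM in WT and 22.9 and 23.2 FPKM in Apoe-/- libraries. Trim30a, which restrains Toll-like receptor signaling, was at 45.0 and 56.9 FPKM in WT and 41.3 and 53.3 FPKM in Apoe-/- libraries. Parp14, an ADP-ribosyltransferase gene, was at 33.3 and 38.7 FPKM in WT and 27.7 and 34.7 FPKM in Apoe-/- libraries. In the latter 3 genes the groups overlapped.

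GBPs are large GTPases that coat and break open pathogen-containing vacuoles. Their genes form a cluster on chromosome 3 (142496934 to 142638008), with Gbp5, Gbp7, Gbp3 and Gbp2, and another on chromosome 5 (105012513 to 105295871), with Gbp8, Gbp9, Gbp4, Gbp10 and Gbp6. The 9 genes had a median difference of 0.09, with 8 above 0 and Gbp2 below. Gbp5 and Gbp8 were among the 8 only without the rescaling to one FPKM total. With 1 library left out, Gbp3 and Gbp6 as well as Gbp5 and Gbp8 turned below 0.

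Within the chromosome 3 cluster, Gbp2 and Gbp7 lay on opposite sides. Gbp2 was at 22.2 and 25.2 FPKM in WT and 17.4 and 19.4 FPKM in Apoe-/- libraries (-0.35 ± 0.12 SE, adjusted p = 0.207, with -0.33 and -0.37 within numbers 1 and 2). Gbp7 was at 11.2 and 13.7 FPKM in WT and 14.1 and 18.3 FPKM in Apoe-/- libraries (0.35 ± 0.17 SE, adjusted p = 0.320, with 0.31 and 0.39 within the numbers). The groups did not overlap in either gene, and neither passed. Gbp3, at 12.0 and 14.1 FPKM in WT and 13.0 and 14.7 FPKM in Apoe-/- libraries, and Gbp5, at 11.4 and 12.6 FPKM in WT and 11.3 and 13.5 FPKM in Apoe-/- libraries, had overlapping groups.

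In the chromosome 5 cluster Gbp9 was the most abundant, at 39.4 and 46.7 FPKM in WT and 53.8 and 63.7 FPKM in Apoe-/- libraries, a 1.37-fold higher mean (0.44 ± 0.14 SE, adjusted p = 0.170). Its groups did not overlap and its difference was 0.44 within each number. Gbp4 was at 37.6 and 43.4 FPKM in WT and 42.0 and 48.9 FPKM in Apoe-/- libraries, and Gbp8 at 29.4 and 37.1 FPKM in WT and 30.3 and 36.8 FPKM in Apoe-/- libraries. Both overlapped between the groups, and the difference of Gbp8, 0.02, was the smallest of the 36 in size. Gbp6 was at 17.2 and 22.1 FPKM in WT and 19.1 and 22.3 FPKM in Apoe-/- libraries, and Gbp10 at 1.66 and 1.79 FPKM in WT and 1.97 and 2.05 FPKM in Apoe-/- libraries. Levels of this pair are uncertain, since 85.4% of the 80-base windows of Gbp6 and 74.6% of those of Gbp10 occur in transcripts of other genes, foremost those of Gm43302. For the other GBPs the share was at most 11.2%.

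IRGs act on vacuoles together with GBPs; Irgm1, Irgm2 and Igtp are regulatory members and Iigp1 an effector. Igtp and Irgm2 are neighbours on chromosome 11 (58199556 to 58222783). Igtp was at 47.1 and 46.8 FPKM in WT and 48.8 and 48.1 FPKM in Apoe-/- libraries, a difference of 0.04 that turned to -0.0025 with libraries rescaled to one FPKM total. Irgm2 was at 11.8 and 12.4 FPKM in WT and 10.2 and 11.5 FPKM in Apoe-/- libraries (-0.15, interval -0.44 to 0.15). Irgm1 was at 35.2 and 38.9 FPKM in WT and 33.2 and 36.8 FPKM in Apoe-/- libraries, with overlapping groups. Iigp1 was at 11.3 and 15.6 FPKM in WT and 16.2 and 20.3 FPKM in Apoe-/- libraries (0.42 ± 0.19 SE, adjusted p = 0.298, with 0.48 and 0.36 within numbers 1 and 2). Its groups did not overlap, but its interval, -0.05 to 0.89, included 0, and with 1 library left out the difference ranged from 0.21 to 0.63.

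Many of these genes shifted the same way between replicate numbers in both genotypes. In 25 of the 36 (69.4%, against 46.5% of all tested genes) replicate 2 was above replicate 1 in both genotypes, and all 9 GBPs were among them. In 6 genes (16.7%, against 31.0%) it was below in both. The median absolute shift between the numbers was 0.18 for the 36 genes and 0.15 for all tested genes. In 13 of the 36 (36.1%, against 45.6%) the shift between numbers was larger in size than the difference between genotypes. The sign of the genotype difference was the same within both numbers for 32 of the 36 (88.9%, against 79.8%); Oas1a, Ifi27l2a, Gbp5 and Gbp8 were the exceptions.

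**Figure D3:**
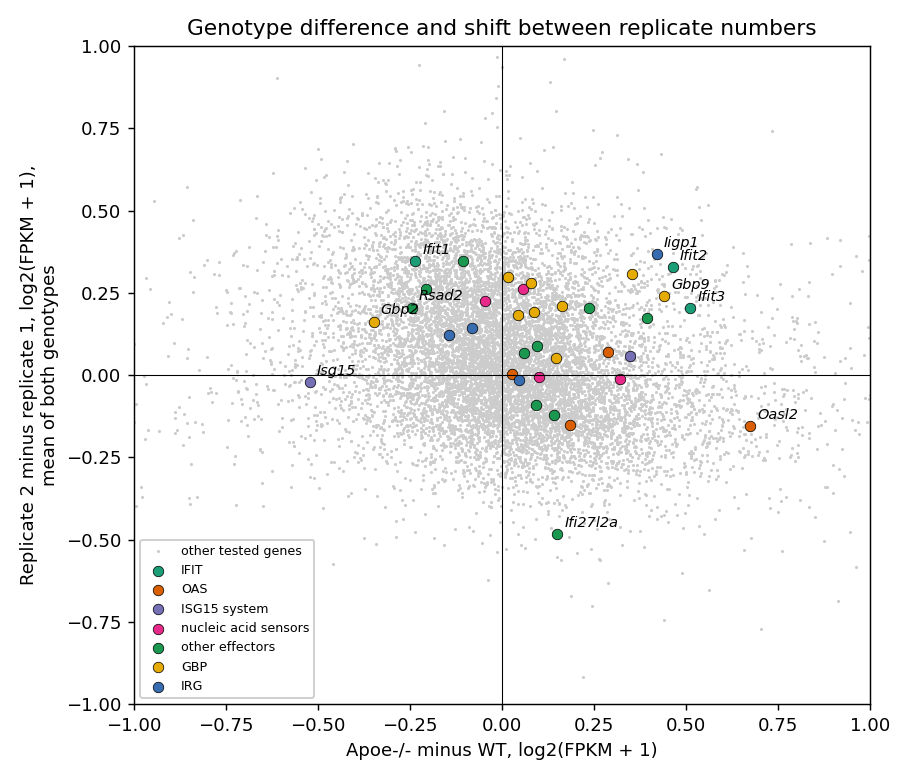
Difference between genotypes (x axis, Apoe-/- minus WT) against the shift between replicate numbers (y axis, replicate 2 minus replicate 1, mean of both genotypes), each on the log2(FPKM + 1) scale. Coloured points are the 36 interferon-stimulated genes by role and grey points the other tested genes within the axis limits of -1 and 1; the GBPs all lie above 0 on the y axis, and Ifi27l2a lies lowest among the 36 genes.

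The genes that carry the interferon signal were then examined from lists covering ligands, receptors, kinases and transcription factors, nucleic acid sensing, restraint of the response and further interferon-induced genes. Of 120 listed genes 118 had a row and 91 were tested. None was called higher, and Cxcl10 was the only one called lower.

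Among 21 interferon ligands Ifng was the only one with enough signal to be tested. It was at 83.7 and 92.6 FPKM in WT and 127 and 138 FPKM in Apoe-/- libraries (0.58 ± 0.10 SE, adjusted p = 0.0693, with 0.60 and 0.57 within numbers 1 and 2), without overlap. Of the others, 13 were listed at 0 in all libraries. Receptor chains did not lie on one side: Ifnar2 was at 48.0 and 50.4 FPKM in WT and 59.9 and 66.0 FPKM in Apoe-/- libraries (0.35, adjusted p = 0.155, with 0.31 and 0.38 within the numbers), and Ifngr2 at 16.1 and 13.8 FPKM in WT and 9.85 and 10.1 FPKM in Apoe-/- libraries (-0.53, adjusted p = 0.102, with -0.65 and -0.41). The partner chains were closer, with group means of 29.2 and 26.6 FPKM for Ifnar1 and 31.9 and 37.9 FPKM for Ifngr1.

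Of 11 kinases and transcription factors of the pathway, 5 had a difference above 0 and 6 below, and none passed. Irf1, an interferon gamma-induced activator, was at 173 and 175 FPKM in WT and 130 and 133 FPKM in Apoe-/- libraries (-0.40 ± 0.08 SE, adjusted p = 0.0916, with -0.42 and -0.39 within numbers 1 and 2). It thus lay lower in both Apoe-/- libraries without overlap. Stat2, a component of the type I interferon response, lay the other way, at 22.5 and 23.8 FPKM against 27.0 and 27.2 FPKM (0.22, adjusted p = 0.304). Irf9 had means of 51.7 and 54.0 FPKM, Irf7 of 42.4 and 48.2 FPKM, and Jak1 of 169 and 147 FPKM in WT and Apoe-/- cells. Socs1, a feedback inhibitor of JAK kinases, varied more between numbers than between genotypes, at 57.1 and 39.6 FPKM in WT and 60.0 and 42.7 FPKM in Apoe-/- libraries. None of the 11 tested nucleic acid sensing genes and none of the 13 genes that restrain the response passed, with list medians of 0.04 and -0.0040.

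**Figure D4:**
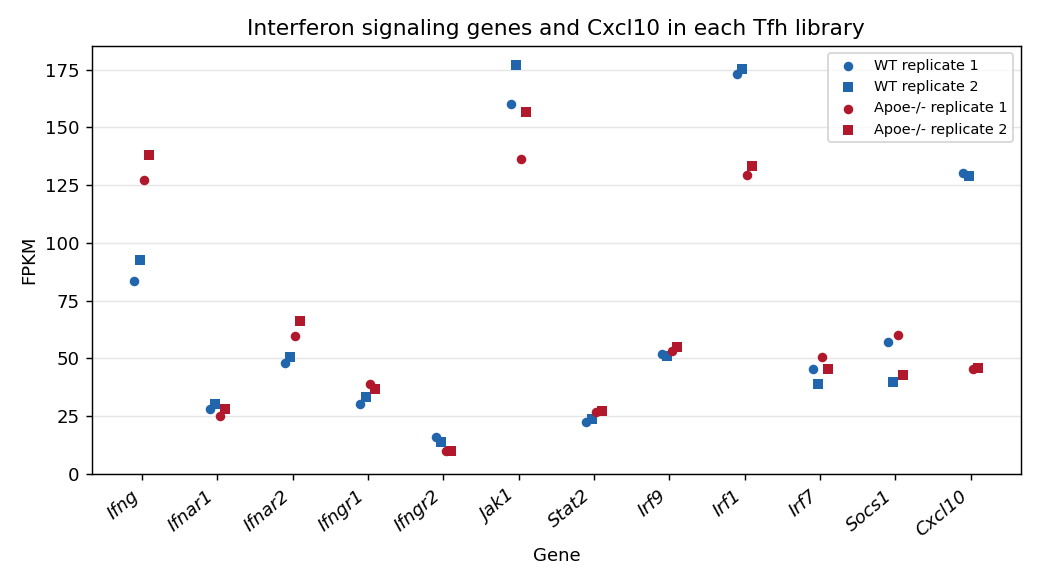
FPKM of the named interferon signaling genes and of Cxcl10 in the 4 libraries, with WT in blue, Apoe-/- in red, circles for replicate 1 and squares for replicate 2. Cxcl10 is at 130 and 129 FPKM in WT and 45.4 and 45.9 FPKM in Apoe-/- libraries, while Ifng lies higher and Irf1 lower in Apoe-/- libraries without passing the test.

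Further interferon-induced genes outside the set were also mostly not called. Of 31 tested antiviral genes none passed (median 0.08, with 21 above 0 and 10 below). Their differences ranged from -0.36 to 0.83, and the lowest adjusted p from limma was 0.0508. Of 19 tested genes that interferon gamma typically induces, Cxcl10 was the only one called lower and none was called higher (list median -0.067, with 8 above 0 and 11 below). Among those not called, Cd274 lay nearest the threshold (-0.73, adjusted p = 0.0550 from limma). Cxcl10 encodes a chemokine that attracts CXCR3-bearing T cells. It was at 130 and 129 FPKM in WT and 45.4 and 45.9 FPKM in Apoe-/- libraries (-1.48 ± 0.09 SE, adjusted p = 0.00802, with -1.50 and -1.47 within the numbers), and its adjusted p stayed at or below 0.0293 in every setting tried.

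Some markers of other cell types differed between the genotypes, foremost those of B cells and neutrophils. Single markers of the macrophage and of both dendritic cell lists were also called. Over all tested genes 1.83% were called. Apoe-/- libraries held less of the summed FPKM of 8 B cell markers (182 to 192, against 309 to 315 in WT), of which 4 were called lower and all 8 had a difference below 0. They held more of 7 neutrophil markers (49.6 to 66.1, against 6.89 to 8.89), with 4 of 4 tested called higher although the granule gene Camp was listed at 0 in all libraries. Macrophage and monocyte markers summed to 107 to 115 FPKM against 84.1 to 89.7 FPKM in WT. Of 7 tested, 1 was called higher, with 6 above 0 and 1 below. Conventional dendritic cell markers summed to 19.8 to 21.2 against 9.22 to 10.2 (1 of 5 called higher, all 5 above 0). CD8 T and NK cell markers summed to 30.9 to 38.6 against 22.6 to 22.9. Of 7 tested, 0 were called, with 6 above 0 and 1 below. Plasmacytoid dendritic cell markers, from a cell type that makes type I interferon, summed to 68.1 to 72.0 FPKM against 86.1 to 94.7 in WT. Ly6d, which B cells also express, was the only one of them called and was lower; it made up 64.4% and 65.3% of the sum in WT and 47.8% and 44.8% in Apoe-/- libraries. Without Ly6d, set aside with its values known, the sum lay the other way, at 37.6 FPKM in both Apoe-/- libraries against 33.7 and 29.9 FPKM in WT. Most of that sum was again 1 gene, Pacsin1, at 25.5 and 21.5 FPKM in WT and 28.5 and 26.7 FPKM in Apoe-/- libraries. Of the 5 tested markers 4 were above 0, Tcf4 lay below (-0.20), and 0 were called. The 10 markers of Tfh cells summed to 1807 to 1820 FPKM in Apoe-/- and 1783 to 1790 FPKM in WT libraries, and none of them passed. Most cell types express interferon-stimulated genes, and the part of these cells in the values above was not tested. In bulk RNA, fewer cells of a type and less RNA per cell cannot be told apart.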

How the data were processed

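RNA sequencing values of 4 Tfh cell libraries, 2 WT and 2 Apoe-/-, were grouped by the labels' titles. The authors deposited FPKM per gene symbol and library. Tools listed in the submitters' processing notes, without roles, are TopHat2 2.0.13, Cuffdiff 2.2.0 and CASAVA 1.8.2, with the build mm10. Which gene annotation, strand setting and filters were used is not given in the sources used here. The rows of Bcl6 and Cxcr5 lack a tab and were split on white space.

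FPKM are not counts, so log2(FPKM + 1) was compared for 11187 genes whose mean FPKM reached 1, by limma 3.58.1 in R 4.3.3 (lmFit and eBayes, two-sided, with a mean-variance trend and no block), with Benjamini-Hochberg adjustment over all of them. With 2 libraries per group, permutation cannot give a p under 0.333 and was not used. The procedure was tested on simulated data. Alternatives changed the pseudocount, filter, scaling, trend, replicate block and libraries.

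The members and lists were chosen with earlier results of these data known. Library values are given for members with a mean FPKM of 10 or more and for the 6 with the largest difference, and here also for the rest; of other lists, for genes that passed and for a fixed set of signaling genes, of which 1 is not reported here. Near-identical copies were sought as 80-base windows shared between GENCODE M21 transcripts; positions and promoters are from RefSeq (GRCm38, the assembly also called mm10).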

Additional observations from a re-analysis of the deposited data

How the results depend on the processing

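The count of 0 of the 36 genes called in either direction held with a pseudocount of 0.1 or 0.5, without a filter, at a mean FPKM of 5 or more (34 of them tested), under both rescalings and without the variance trend. With 1 library left out, 0 to 2 of them were called higher and 0 lower; the 2 were Oasl2 and Ifi27l2a, both without Apoe-/- replicate 2. With 1 library left out the lone library is assumed to vary like the other group.

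With the replicate block, which the labels do not give, 10 of the 36 were called higher (Ifit2, Ifit3, Oasl2, Usp18, Dhx58, Mx1, Gbp4, Gbp7, Gbp9 and Iigp1) and 3 lower (Isg15, Parp14 and Gbp2), and 1908 and 1776 of all tested genes. With 2 pairs the numbers are not shown to pair libraries. Deviations of equal numbers correlated at 0.21 across genes, and those of crossed numbers at the mirror value of -0.21.

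Calls over all genes were 106 higher and 99 lower. They were 35 and 41 without a filter and 51 and 71 at a mean FPKM of 5 or more, and leaving out single libraries gave 54 to 317 higher and 61 to 301 lower.

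The median difference of the 36 genes of 0.092 became 0.097 and 0.095 with pseudocounts of 0.1 and 0.5, 0.089 at a mean FPKM of 5 or more, 0.047 with one FPKM total and 0.10 with one median FPKM, and ranged from 0.054 to 0.16 with 1 library left out. The cause of these shifts was not tested.

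Leaving out 1 library moved the difference by over 1.5 times or turned its sign for 26 of the 36 genes. Signs turned for 10 of the 36 genes in at least 1 setting, and 26 kept theirs in every setting run. With one FPKM total the turned differences were -0.019 for Oas1a, -0.0016 for Gbp5, -0.031 for Gbp8 and -0.0025 for Igtp. Leaving out single libraries gave differences of -0.0036 to 0.059 for Oas1a, -0.078 to 0.19 for Ddx58, -0.18 to 0.083 for Ifih1, -0.29 to 0.075 for Trim30a, -0.23 to 0.53 for Ifi27l2a, -0.022 to 0.20 for Gbp3, -0.074 to 0.16 for Gbp5, -0.097 to 0.25 for Gbp6, -0.15 to 0.18 for Gbp8 and -0.17 to 0.35 for Socs1. The cause was not tested. Depth is unknown, and 2 libraries per group limit the precision of every value.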
